A study of Homo sapiens with 6 samples.

Results

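Glutathione transferases are enzymes that join the tripeptide glutathione to reactive compounds, or use it to reduce or rearrange them, and they are grouped into classes named by Greek letters. The measurements below cover 9 of their genes, GSTO1, GSTO2, GSTP1, GSTM2, GSTM3, GSTM4, GSTA4, GSTK1 and GSTZ1, together with FAH. The enzymes of GSTZ1 and FAH act in sequence at the end of tyrosine breakdown. The members were all probes of the array whose gene symbol in the platform annotation was 1 of these 10, and they numbered 14 of 47321 probes. The genes were put together with the result of this comparison known, above all the low values of GSTO2 and FAH in treated samples. Their differences between the groups are therefore given as a description, with a standard error and a 95% interval and with no p-value for any single member.

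The samples, labelled as the line HCC1954 from a HER2-positive breast carcinoma, were treated with TBK1 inhibitor II for 3 days (n = 3) or with vehicle alone for 3 days (n = 3). TBK1 inhibitor II is a small molecule named for the kinase TBK1, an enzyme of innate immune signalling that the title of the series calls a therapeutic target. Total RNA was hybridised to Illumina HumanHT-12 V4.0 arrays, and no dose stands in the labels. Nothing in the labels says that the 3 samples of a group were separate cultures, so every error and p-value below covers only how far these samples differ from each other, and that spread could be technical.

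The cell line label was checked against marker genes. Of 10 markers of breast epithelium and of the ERBB2 region, 5 were detected on all 6 arrays (ERBB2, KRT8, KRT18, EPCAM and CDH1) and 5 on none (GRB7, KRT5, KRT7, KRT14 and KRT19). The detected ones were dim, with median signals of 405.3 for ERBB2, for which 1 of 3 probes was kept, and of 164.7 to 199.5 for the other 4, where the median signals of whole arrays were 98.5 to 138.1. On all 6 arrays the mesenchymal markers VIM and CDH2 and the neurofilament gene NEFM were detected too, with median signals of 5667, 1407 and 2003. The undetected keratins and GRB7 and the dim ERBB2 go against the label, so each difference below is one between samples labelled HCC1954. Detected probes numbered 19676 to 20741 on the inhibitor arrays and 18325 to 20127 on the vehicle arrays, and what part these counts have in the results was not tested.

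The transferases of the cytosol work as pairs of subunits, and many of their genes are switched on by NRF2, a transcription factor that binds antioxidant response elements when cells meet electrophiles. The omega enzymes GSTO1 and GSTO2 differ from the others in having a cysteine in the active site, and they reduce dehydroascorbate and mixed disulfides. In tyrosine breakdown, the zeta enzyme GSTZ1 isomerises maleylacetoacetate to fumarylacetoacetate, which FAH then splits into fumarate and acetoacetate. Loss of FAH causes hereditary tyrosinaemia, a disease of liver and kidney in which the pathway is normally most active.

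The promoters of the 3 members with the lowest log2 fold changes, inhibitor minus vehicle, are shown because GSTO1 and GSTO2 are neighbours on the chromosome and were both lower, while FAH lies elsewhere and differed as much as GSTO2. Each line gives the 250 bases before the gene's start in the RefSeq table of build GRCh38.p14, 5′ to 3′ on the plus strand, which is the strand of all 3 genes. Capitals mark matches, on either strand, to 5 motifs: the antioxidant response element core TGACNNNGC, the GC box GGGCGG, the CCAAT box CCAAT, the TATA box TATAAA and the E box CACGTG. The GSTO1 window is chr10:104254642-104254891, the GSTO2 window chr10:104268934-104269183 and the FAH window chr15:80152539-80152788.
GSTO1: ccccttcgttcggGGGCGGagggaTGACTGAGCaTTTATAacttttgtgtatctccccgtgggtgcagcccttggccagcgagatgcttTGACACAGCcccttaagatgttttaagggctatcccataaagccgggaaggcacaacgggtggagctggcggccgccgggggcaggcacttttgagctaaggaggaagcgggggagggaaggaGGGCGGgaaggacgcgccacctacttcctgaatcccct
GSTO2: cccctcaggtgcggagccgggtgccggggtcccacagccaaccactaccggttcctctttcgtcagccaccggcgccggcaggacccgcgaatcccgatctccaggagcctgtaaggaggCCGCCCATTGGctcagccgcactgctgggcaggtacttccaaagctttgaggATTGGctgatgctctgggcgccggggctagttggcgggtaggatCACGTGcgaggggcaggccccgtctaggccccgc
FAH: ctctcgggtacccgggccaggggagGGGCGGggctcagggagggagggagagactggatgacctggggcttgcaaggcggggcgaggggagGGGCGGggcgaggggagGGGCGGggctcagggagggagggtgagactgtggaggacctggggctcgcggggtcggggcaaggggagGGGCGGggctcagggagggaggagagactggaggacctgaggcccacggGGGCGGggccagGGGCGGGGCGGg

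All 10 genes had an entry in the promoter table, GSTO2 and FAH with 2 entries each, of which the 1 nearest the annotated gene start was used. The GSTO1 window held 2 antioxidant response element cores, TGACTGAGC and TGACACAGC, and the TATA box match. GSTO2 held no such core, but 2 CCAAT boxes, 1 GC box and the E box. The FAH window, with 77.2% G and C, held 7 GC box matches, some of them overlapping, and none of the other motifs. Of the other members, GSTP1 (TGACTCAGC) and GSTA4 (TGACCTGGC) held the antioxidant core, so 3 of 10 members did, against 10.9% of 35116 promoter windows in the table. GC boxes were in 8 of 10 members and 42.6% of all windows, CCAAT boxes in 4 and 32%, and E boxes in 1 and 6.34%. GSTO1, GSTO2 and FAH thus shared the GC box and no other motif of these 5, and a match is a run of letters, not a measured binding site.

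Over the whole table, 765 of 19958 kept probes (3.83%) passed the test (limma, Benjamini-Hochberg adjusted p under 0.05), 480 higher and 285 lower in inhibitor samples. With median centring in place of quantile normalization, 891 were higher and 51 lower, and the median log2 fold change of all kept probes moved to 0.21, against 0.01. Kept probes are those whose detection p was below 0.05 on 3 or more arrays. All 14 member probes were kept and 13 were detected on all 6 arrays. The single member probes past the threshold were those of GSTO2 and FAH, 2 of 14, both lower and 0 higher, where 1.43% of all kept probes were lower and 2.41% higher, and no support is drawn from that count because the choice of members rests on it. The groups did not overlap for 7 of 14 probes, all lower in inhibitor samples, where 12.8% of kept probes were separated in that direction and 28.5% in either. These 7 include the probes of GSTO2 and FAH and both probes of GSTO1. The median log2 fold change of the 14 probes was -0.23, against 0.01 for all kept probes, and with median centring it was -0.05, against 0.21. No support is drawn from the count of separated probes or from these medians either, because the members were chosen with their values known.

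GSTO2, the dehydroascorbate-reducing omega transferase, had normalized log2 levels of 7.47, 7.23 and 7.56 in inhibitor samples, against 8.87, 8.76 and 8.93 in vehicle samples. Every inhibitor sample lay more than 1 log2 unit below every vehicle sample, and in RNA of whole cultures fewer cells with the transcript and less of it per cell cannot be told apart. The log2 fold change was -1.43 ± 0.16 (SE, n = 3 per group), which is a level 0.371 times that of vehicle (95% interval 0.289 to 0.475). The order was already visible in the signal intensities before any normalization, at 242.6, 267.2 and 351.0 on the inhibitor arrays and 397.4, 400.4 and 736.3 on the vehicle arrays. Ranked from the lowest fold change among the 19958 kept probes, GSTO2 stood at rank 15.

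GSTO1, the more widely expressed omega transferase, is read by 2 probes. Its probe ILMN_2227573 had log2 levels of 12.04, 11.88 and 11.73 in inhibitor samples, against 12.77, 12.39 and 12.56 in vehicle samples. Its probe ILMN_1808196 had 11.23, 11.04 and 10.97 in inhibitor samples, against 11.47, 11.85 and 11.61 in vehicle samples. On both probes the normalized levels of the 3 inhibitor samples lay below those of the 3 vehicle samples, with smaller gaps than for GSTO2. In signal intensity before normalization the groups overlapped on both probes. On ILMN_2227573 inhibitor replicate 2, at 4344.9, lay above vehicle replicate 2, at 4273. On ILMN_1808196 inhibitor replicates 2 and 3, at 2450.9 and 2563.1, lay above vehicle replicate 1, at 2133.7. The log2 fold changes were -0.69 ± 0.17 (interval -1.07 to -0.31) and -0.56 ± 0.17 (interval -0.94 to -0.19). In the deposited processed values the differences were -0.69 and -0.55. With median centring they were -0.53 and -0.42, where the median of all kept probes was 0.21.

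**Figure D1:**
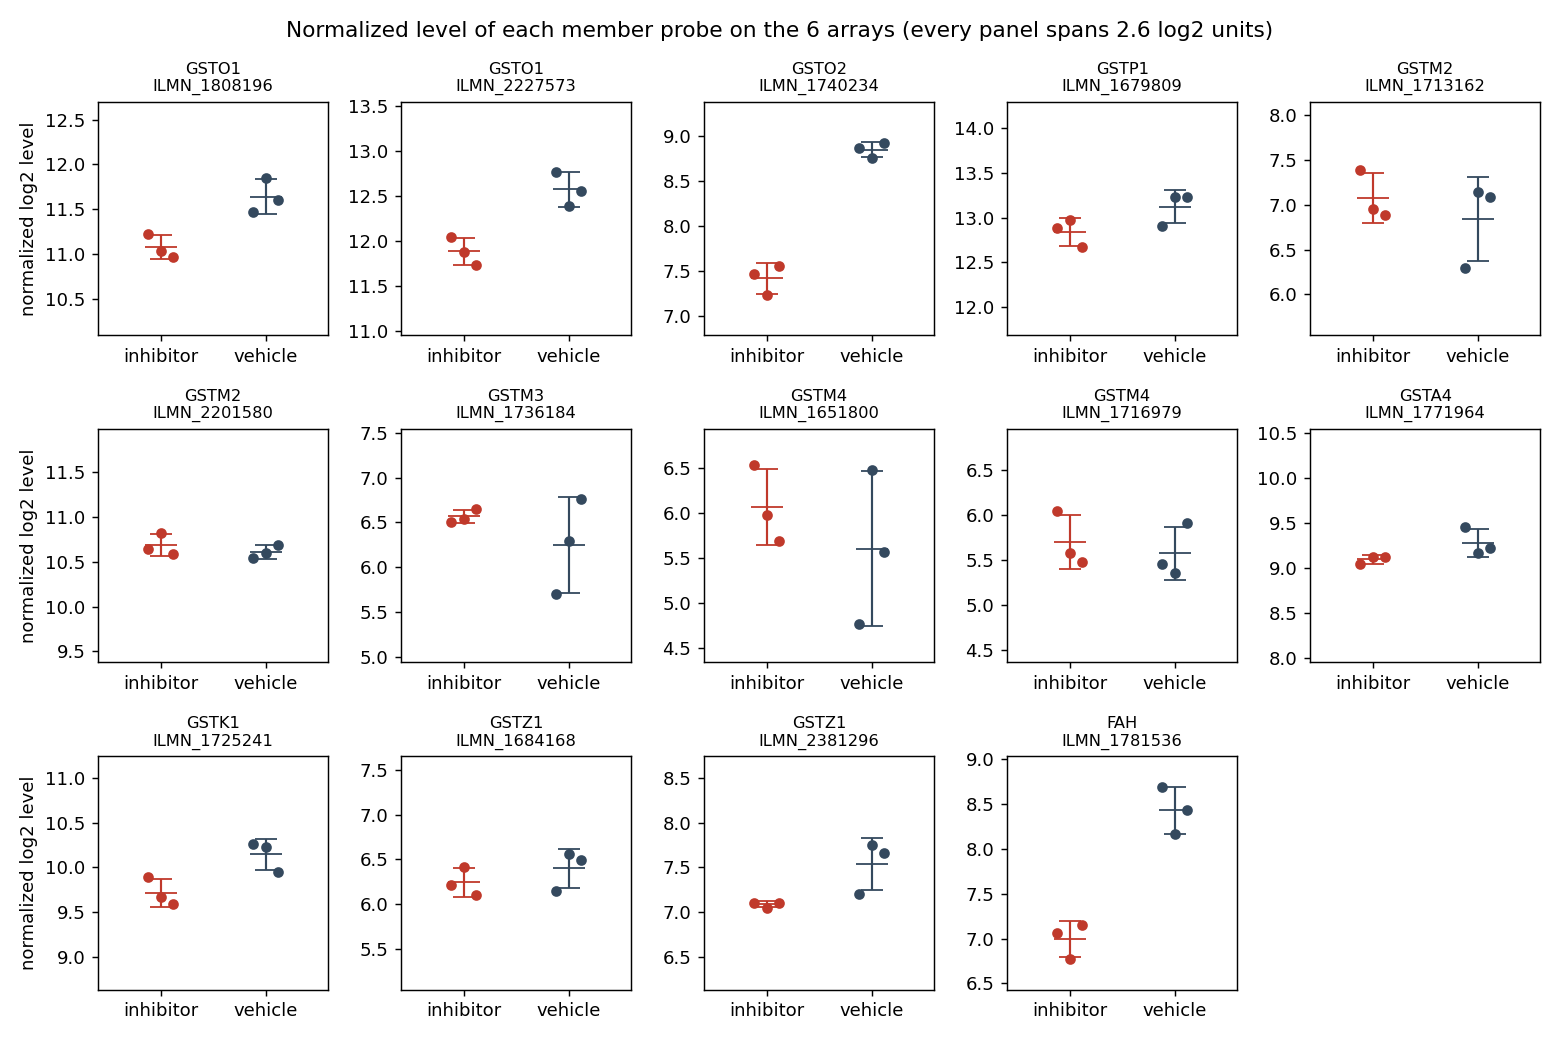
Normalized log2 level (vertical axis) of the 14 member probes, 1 panel each, with the 3 inhibitor samples in red on the left and the 3 vehicle samples in dark blue on the right; points are samples, the wide tick is the mean and the bar is 1 SD. GSTO2 and FAH show the widest gaps (means of 7.42 against 8.85 and of 6.99 against 8.43), while the mu class panels overlap.

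FAH, whose enzyme makes the final cut of tyrosine breakdown, had log2 levels of 7.06, 6.77 and 7.15 in inhibitor samples, against 8.69, 8.16 and 8.43 in vehicle samples. The groups were separate by about 1 log2 unit at their nearest points, vehicle replicate 2 and inhibitor replicate 3. The log2 fold change was -1.43 ± 0.19, a level 0.371 times that of vehicle (95% interval 0.276 to 0.499), at rank 16 from the lowest, next to GSTO2. In signal intensity the inhibitor arrays had 205.1, 218.7 and 290.1, against 358.4, 290.5 and 550.9 on the vehicle arrays. Before normalization inhibitor replicate 3 and vehicle replicate 2 thus nearly met, and the median signals of their whole arrays were 130.7 and 101.7.

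GSTZ1, whose enzyme supplies the substrate of FAH, did not follow it to the same depth. Its brighter probe ILMN_2381296 had log2 levels of 7.11, 7.05 and 7.11 in inhibitor samples, against 7.21, 7.75 and 7.66 in vehicle samples. The groups were separate there, but vehicle replicate 1 lay only just above the inhibitor samples. Its probe ILMN_1684168, annotated to the same transcript, had 6.21, 6.42 and 6.10 in inhibitor samples, against 6.15, 6.56 and 6.49 in vehicle samples, and the groups overlapped. The log2 fold changes were -0.45 ± 0.18 (interval -0.86 to -0.04) and -0.16 ± 0.18 (interval -0.55 to 0.24). With median centring the dimmer probe was at 0.12 and the brighter at -0.15.

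GSTK1, the kappa transferase of mitochondria and peroxisomes, had log2 levels of 9.89, 9.67 and 9.59 in inhibitor samples, against 10.26, 10.23 and 9.95 in vehicle samples. The groups did not overlap, with a log2 fold change of -0.43 ± 0.17 (interval -0.81 to -0.06). GSTA4, the alpha transferase that conjugates aldehydes from oxidised lipids, had 9.04, 9.12 and 9.12 in inhibitor samples, against 9.45, 9.16 and 9.22 in vehicle samples. The GSTA4 groups were separate by a few hundredths of a log2 unit, and its log2 fold change of -0.18 ± 0.15 (interval -0.53 to 0.16) turned to 0.05 with median centring. GSTP1, the pi transferase that is abundant in many tumours, had 12.88, 12.97 and 12.67 in inhibitor samples, against 12.91, 13.23 and 13.23 in vehicle samples. Vehicle replicate 1 lay among the inhibitor samples, and the log2 fold change was -0.28 ± 0.17 (interval -0.66 to 0.10).

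The mu class members GSTM2, GSTM3 and GSTM4 lie in 1 cluster and encode closely similar proteins. Their log2 fold changes were above 0 on all 5 probes with overlapping groups on each, and the larger values rested on vehicle replicate 1. GSTM1, in the same cluster but not a member, had 0.10 ± 0.14 on its brightest kept probe and -0.09 on its other kept probe. On the brightest 1 the groups did not overlap, with inhibitor samples higher, as for 18.5% of all genes. GSTM2, a mu transferase, had 10.64, 10.82 and 10.59 in inhibitor samples on its brighter probe ILMN_2201580, against 10.54, 10.60 and 10.69 in vehicle samples. The difference of 0.07 ± 0.15 (interval -0.27 to 0.41) is small beside the spread. Its dimmer probe ILMN_1713162 had a log2 fold change of 0.23 ± 0.25, where vehicle replicate 1, at 6.30, lay well below the other vehicle samples at 7.14 and 7.08.

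GSTM3 had log2 levels of 6.51, 6.54 and 6.65 in inhibitor samples, against 5.70, 6.29 and 6.76 in vehicle samples. The vehicle samples alone spanned more than the difference between the groups, 0.32 ± 0.25 (interval -0.24 to 0.87). GSTM4 had 0.46 ± 0.39 (interval -0.42 to 1.34) on probe ILMN_1651800, where vehicle replicate 1, at 4.76, was the only array on which a member probe was not detected. Its probe ILMN_1716979, annotated to another transcript, had 0.13 ± 0.21 (interval -0.35 to 0.61). Without vehicle replicate 1 GSTM3 and GSTM4 probe ILMN_1651800 were both at 0.04 and the dimmer GSTM2 probe at -0.04. Without inhibitor replicate 1 the GSTM4 probe ILMN_1716979 was at -0.04, and without inhibitor replicate 2 the brighter GSTM2 probe was at 0.00. Probe sequences were not used here, so signal shared between the mu genes cannot be told apart.

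**Figure D2:**
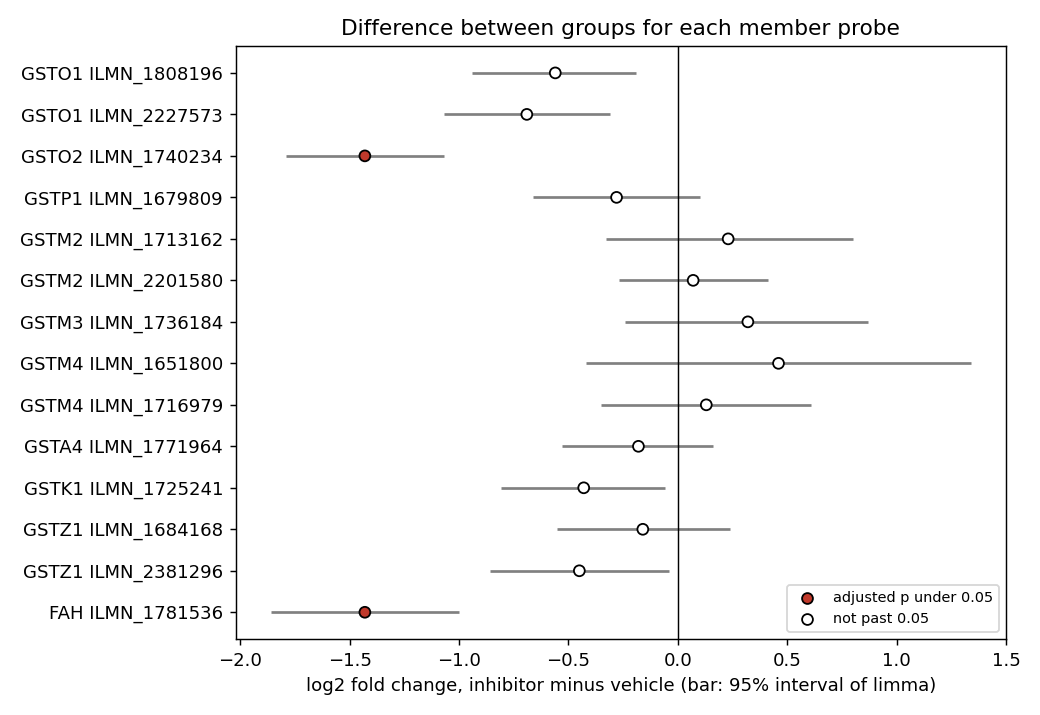
Log2 fold change of each member probe, inhibitor minus vehicle (horizontal axis), with the 95% interval of the limma fit as a bar; filled points passed an adjusted p of 0.05 over all kept probes. GSTO2 and FAH, both at -1.43, lie farthest from 0, and those of the 5 mu class probes all include 0.

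The 2 largest member differences kept their direction under every alternative that was run, and their size changed with the background correction and with the normalization. With median centring GSTO2 was at -1.15 and FAH at -1.14, where the median of all kept probes was 0.21. With the deposited processed values the difference was -0.99 for GSTO2 and -0.90 for FAH, on the reading that this table is on a log2 scale. Over 15 alternative settings GSTO2 ranged from -1.51 to -0.99 and FAH from -1.57 to -0.90. With any single inhibitor sample left out the values were -1.51 to -1.34 for GSTO2 and -1.51 to -1.32 for FAH.

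**Figure D3:**
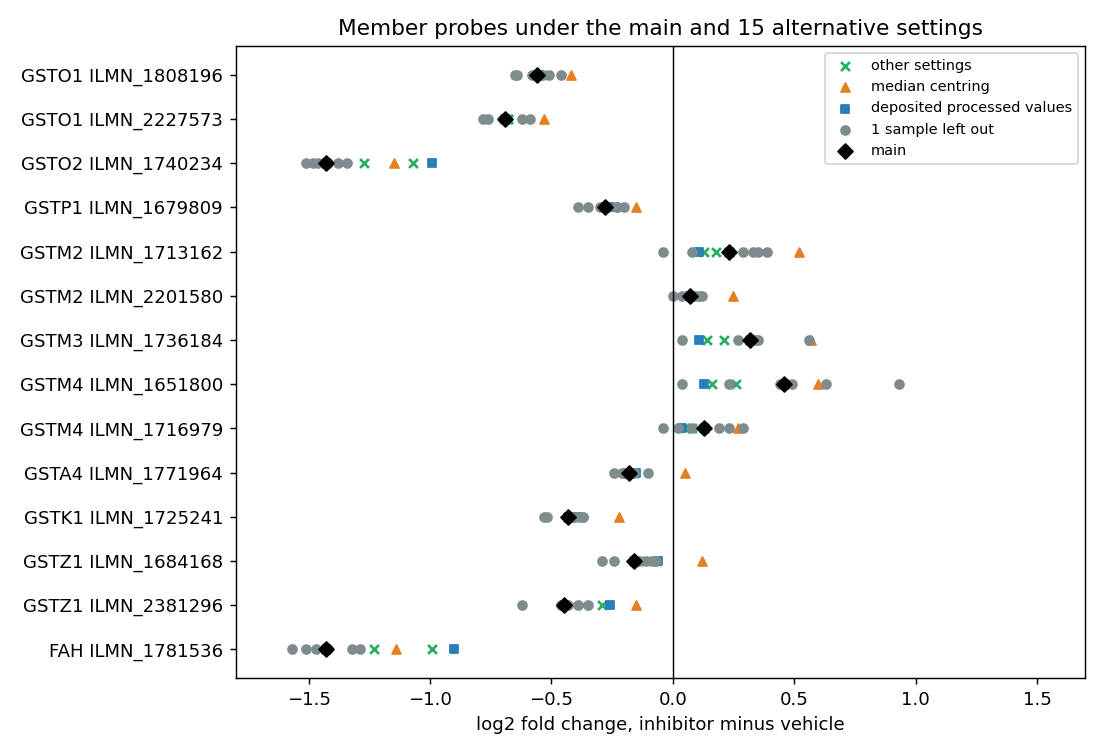
Log2 fold change, inhibitor minus vehicle (horizontal axis), of each member probe in the main fit (black diamond) and under 15 alternatives: 1 sample left out (grey circle), the deposited processed values (blue square), median centring (orange triangle) and other settings (green cross). GSTO2 and FAH stay at or below -0.90 throughout, while GSTA4 and the dimmer GSTZ1 probe turn above 0 with median centring (0.05 and 0.12).

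GSTO2 was the member with the largest difference past the threshold, and the 3 other kept probes closest to its profile were those of IRS4, BUB3 and AMOT. Likeness was the root mean square difference of log2 levels over the 6 arrays, each probe centred on its own mean. IRS4, an adaptor of insulin receptor signalling, differed from GSTO2 by 0.0845 log2 units, BUB3, a spindle checkpoint protein, by 0.108, and AMOT, a junction protein, by 0.117. The log2 fold changes of these 3 probes were -1.37, -1.39 and -1.39, as the way of choosing them implies. The BUB3 probe was not the brightest kept probe of its gene, so its value does not stand for BUB3 as a whole.

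Other glutathione transferases did not pass the test in either direction. Of the 17 on the array 8 were measured, with 0 higher and 0 lower, where 4.39% of 11582 genes passed, 2.94% higher and 1.45% lower (brightest kept probe per gene, p adjusted over all kept probes). The microsomal transferases MGST2 (-0.54 ± 0.16, limma adjusted p = 0.0899) and MGST1 (-0.48 ± 0.15, adjusted p = 0.105) had the smallest p-values. The groups did not overlap for MGST2, MGST1, PTGES2 and GSTA2, all lower in inhibitor samples, and for GSTM1, higher. Over all genes 13.0% were separated downward and 18.5% upward. At 9.93, 9.86 and 9.65, the MGST2 levels of the inhibitor samples lay below those of the vehicle samples at 10.46, 10.37 and 10.23. Each passed in some alternatives, MGST2 in 5 of 15 and MGST1 in 4 of 15. The list had a median log2 fold change of -0.41, against 0.03 for all genes, and of -0.20 with median centring, against 0.24. The theta genes GSTT1 and GSTT2, the alpha genes GSTA3 and GSTA5, and GSTM5, HPGDS and LTC4S were not detected on any array.

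Of 12 measured genes of glutathione synthesis and salvage, 2 fell and 10 did not pass, where 1.45% of all genes were lower and 2.94% higher. GSS, glutathione synthetase, which adds glycine in the final step, had log2 levels of 8.53, 8.01 and 8.09 in inhibitor samples, against 9.23, 9.17 and 8.98 in vehicle samples (-0.92 ± 0.18, limma adjusted p = 0.0343). LAP3, an aminopeptidase that can split cysteinylglycine, had 9.31, 9.33 and 9.79 in inhibitor samples, against 10.40, 10.16 and 10.26 in vehicle samples (-0.79 ± 0.18, limma adjusted p = 0.0475). For both genes all inhibitor samples lay below all vehicle samples, as for 13.0% of all genes. The subunits of glutamate-cysteine ligase, which sets the rate of synthesis, had -0.01 ± 0.18 (GCLC, adjusted p = 0.989) and 0.11 ± 0.19 (GCLM, adjusted p = 0.786), and were named after their values were seen. This list had a median log2 fold change of -0.09 beside 0.03 over all genes, and with median centring of 0.08 beside 0.24. The calls of GSS and LAP3 ended when any single sample was left out and with median centring. They also ended with the replicate number as a block and without the filter on dim probes. Each passed in 6 of 15 alternatives. The limma adjusted p ranged from 0.00430 to 0.197 for GSS and from 0.00560 to 0.279 for LAP3.

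Of 12 measured genes of phenylalanine and tyrosine breakdown other than the members, 11 did not pass and 1 fell (1.45% of all genes were lower). This was QDPR, which regenerates the tetrahydrobiopterin cofactor that phenylalanine hydroxylase uses, with log2 levels of 9.26, 9.26 and 9.20 in inhibitor samples, against 10.01, 9.94 and 9.85 in vehicle samples (-0.69 ± 0.15, limma adjusted p = 0.0378). Its 3 samples of each group lay close together and the groups were well apart. The call ended when any single sample was left out, with the replicate number as a block, and with median centring (-0.48, limma adjusted p = 0.417). QDPR passed in 7 of 15 alternatives, and the limma adjusted p lay between 0.00473 and 0.417. TAT, the tyrosine aminotransferase that opens the pathway, was detected on 0 arrays, HPD, the next enzyme, on 2, and HGD, which makes the substrate of GSTZ1, on 4, with 3 of them inhibitor arrays. The aspartate aminotransferases GOT1 and GOT2, which can also act on tyrosine, were detected on all 6. FAHD1 and FAHD2A, relatives of FAH with other substrates, had -0.31 ± 0.17 and -0.30 ± 0.16 (limma adjusted p = 0.314 and 0.315). These detection counts and both relatives were named after their values were seen. Over the list the median log2 fold change was 0.01, where all genes had 0.03.

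Of 5 measured genes of mercapturic acid steps and conjugate export, 4 did not pass and 1 fell (1.45% of all genes were lower). ACY1, which removes the acetyl group from mercapturic acids and other acetylated amino acids, had log2 levels of 5.20, 5.59 and 5.36 in inhibitor samples, against 7.27, 7.25 and 6.61 in vehicle samples (-1.66 ± 0.22, limma adjusted p = 0.0123). Its signals on the inhibitor arrays, 120.9, 145.8 and 151.8, were near the median signals of those arrays, 110.7, 117.3 and 130.7. The size of the difference changed with the background correction. It was -1.14 with an offset of 50, -0.76 without background correction and -0.62 in the deposited processed values. ACY1 passed in 11 of 14 alternatives (limma adjusted p 0.000651 to 0.0894), and lost its call when any single inhibitor sample was left out. Its probe did not enter the alternative with detection p under 0.01 on all 6 arrays. The median log2 fold change of the list, -0.06 beside 0.03 over all genes, became 0.21 beside 0.24 with median centring.

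No gene passed among 12 measured glutathione peroxidases and other glutathione-using enzymes or among 8 measured regulators of the antioxidant and xenobiotic response. Over all genes 4.39% passed. In the first list GPX1, the cytosolic peroxidase, had -0.57 ± 0.16 (limma adjusted p = 0.0758) and HAGH, which uses a glutathione thioester in detoxifying methylglyoxal, 0.67 ± 0.25 (adjusted p = 0.166, with 0.13 on its other kept probe and, without vehicle replicate 1, 0.35 on this one). In the second list AHR, the dioxin receptor, had 0.66 ± 0.20 (limma adjusted p = 0.0995) and KEAP1, which holds NRF2 back, -0.64 ± 0.22 (adjusted p = 0.125). The groups of all 4 genes did not overlap, which held for 31.5% of all genes (18.5% higher, 13.0% lower), and GPX1 and AHR each passed in 5 of 15 alternatives. The median log2 fold changes were -0.10 in the first list and 0.28 in the second, beside 0.03 over all genes. With median centring they were 0.10 and 0.47, beside 0.24 over all genes. NFE2L2, which encodes NRF2, had 0.23 ± 0.16 (limma adjusted p = 0.418), and was named after its value was seen.

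**Figure D4:**
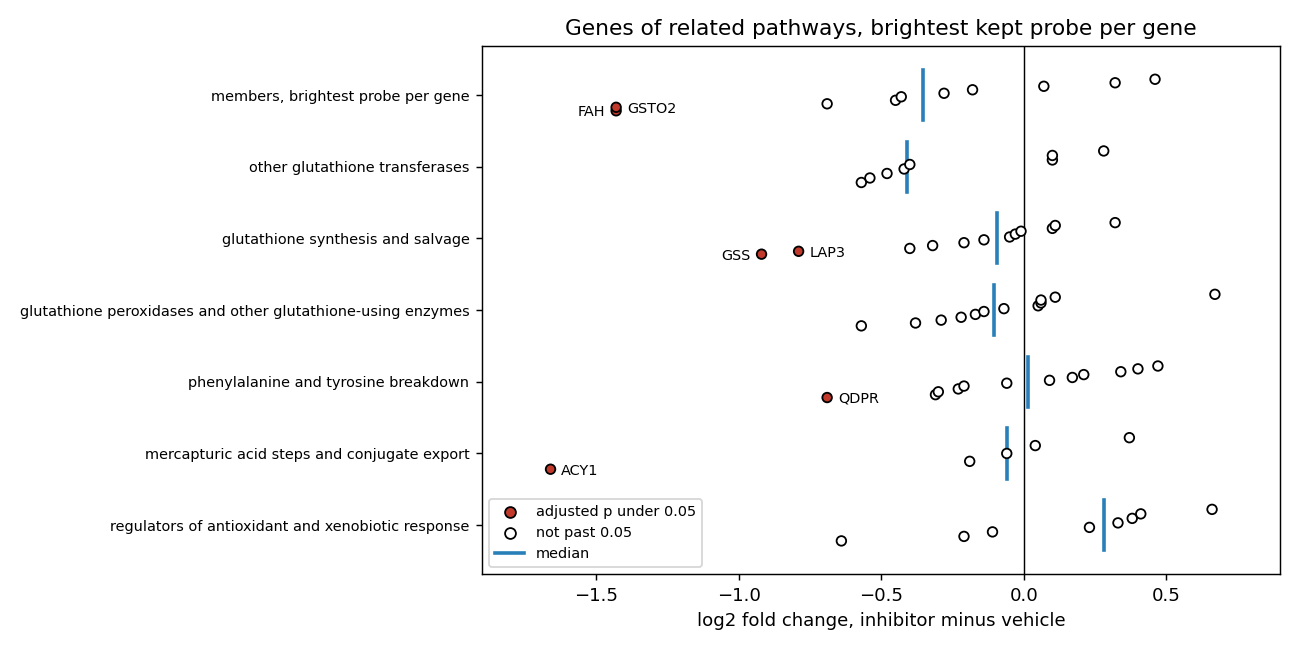
Log2 fold change, inhibitor minus vehicle (horizontal axis), of each measured gene in the member set and in 6 related lists; each point is the brightest kept probe of a gene, filled points passed an adjusted p of 0.05, and the blue line is the list's median. The filled points, GSTO2, FAH, GSS, LAP3, QDPR and ACY1, all lie below 0, and no gene of the list of other transferases passed.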

How the data were processed

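RNA of 3 inhibitor and 3 vehicle samples was measured on Illumina arrays, and groups and replicate numbers came from the labels. The deposited non-normalized table gives linear signal intensity per probe and array, per the file headers, for 47321 probes, and array medians differ. Beside each intensity the authors deposited a detection p-value, which was read as belonging to the array whose column stands before it. The deposited processed table is on a log2-like scale with the same median, 7.16, on every array, and no label or header states its log base or steps. Its differences between groups followed those of quantile-normalized log2 signal across probes (r = 0.996, slope 0.907). Its direction is that of the signal, it was not centred per gene, and it is read as log2. The submitters' processing notes name lumi with no version.

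Signals were corrected with limma 3.58.1 (R 4.3.3) by normexp from the detection p-values with an offset of 16, quantile normalized and put on a log2 scale. Probes detected (p under 0.05) on at least 3 of 6 arrays, 19958, entered 1 lmFit and eBayes fit without covariates, and p-values were adjusted over all of them by the Benjamini-Hochberg method at 0.05. All adjusted p-values are from limma. For lists, the brightest kept probe stood for a gene. Against the values used here, group differences in the deposited processed table had a slope of 0.505 across probes, and quantile normalization removes a shift shared by most genes. The number of arrays limits the precision. In the platform annotation 30112 probes had 1 gene symbol, 8 several and 17201 none, and symbols were updated through RefSeq (GRCh38.p14) for 30073.

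The members, the lists and the rules for named genes were chosen with earlier results of these data known. Named besides the members are up to 4 genes per list past the threshold, or the 2 with the smallest p, and the 3 probes most like the most changed member. The fit was tested on simulated data, in which 200 of 19958 probes were changed. It recovered 48.0% of changes of 1 log2 unit and 88.0% of changes of 2, with 4 false calls among 140. A difference of 1 log2 unit or less can therefore go without a call. The simulated errors were independent and normal, all changes were of 1 or 2 log2 units, and fewer probes were changed than the 765 called in the data. The rates of recovery and of false calls are those of the simulation, and in the data they can differ. No 2 arrays shared more than 0.292% of signal values.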

Additional observations from a re-analysis of the deposited data

How the results depend on the processing

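The sign held in 198 of 203 recomputed values of the 14 member probes over 15 alternatives. The exceptions lay within 0.12 of 0 and were those of GSTM2 (both probes), GSTM4, GSTA4 and the dimmer GSTZ1 probe. The member probes past the threshold, 2 as reported, numbered 4 (GSTO2, FAH and both GSTO1 probes) with quantile-normalized signal without background correction, an offset of 50, the deposited processed values, detection under 0.01 on all 6 arrays, or an intensity trend with robust eBayes. In the same order of settings all calls, 765 as reported, numbered 1697, 1558, 1570, 1239 and 1641, and without a filter on dim probes 466. With the brightest probe per gene and p adjusted over genes, 871 of 11582 genes passed, among them 3 of 10 members (GSTO2, FAH and GSTO1). The pathway genes past the threshold, 4 as reported, numbered 11 without background correction, 9 with the offset of 50, 11 in the deposited values, 9 with the trend, 2 without the filter and 1 with median centring. Leaving out 1 sample gave 4 to 535 calls, 0 to 2 member probes and 0 to 2 pathway genes. Without inhibitor replicate 1, 2 or 3 there were 5, 4 and 4 calls and 0 member calls. The member counts follow values used in choosing the members and support nothing. The cause of these changes was not tested. With the replicate number as a block, 66 probes, 2 member probes and 1 pathway gene passed, while same-numbered samples had deviations from their group means that correlated at -0.14, 0.02 and 0.12, so the numbers were not taken as pairs. With dim probes such as those of GSTM4, signal near background limits what could be detected.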

Other observations

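The protein-coding genes next to GSTO1 and GSTO2, up to 3 on either side in RefSeq order, were looked at after the member values were known. Those measured were SFR1, a DNA repair factor on the GSTO1 side (-0.11 ± 0.17, limma adjusted p = 0.750), and ITPRIP, which binds an inositol trisphosphate receptor, on the GSTO2 side (0.49 ± 0.16, adjusted p = 0.122). Neither passed the test, and the ITPRIP levels of the inhibitor samples lay above those of the vehicle samples. Of the genes beside FAH, 4 were measured and 0 passed. MTHFS, a folate enzyme, had -0.61 ± 0.22 (limma adjusted p = 0.151), ZFAND6 0.35 ± 0.19 (adjusted p = 0.305), ARNT2, a partner of bHLH-PAS transcription factors, -0.50 ± 0.19 (adjusted p = 0.166), and ABHD17C -0.19 ± 0.15 (adjusted p = 0.490). Beside the mu cluster GNAI3 had -0.18 ± 0.17 (limma adjusted p = 0.569) and AHCYL1 0.14 ± 0.16 (adjusted p = 0.667). Beside GSTZ1, POMT2 had 0.05 ± 0.23 (limma adjusted p = 0.923) and SAMD15 -0.43 ± 0.19 (adjusted p = 0.214). Besides those of ITPRIP, the groups did not overlap for ZFAND6, higher in inhibitor samples, or for ARNT2, ABHD17C and SAMD15, all lower. Over all genes 18.5% were separated upward and 13.0% downward. The difference between any neighbour and its member was not tested.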
